A study of Mus musculus with 12 samples.

Results

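The regions described here lie in the mouse immunoglobulin heavy chain, kappa light chain and lambda light chain loci, as measured by ATAC-seq in splenic B cells. They are the regions of the deposited table that start inside 113200000 to 116100000 of chromosome 12 (heavy), 67500000 to 70800000 of chromosome 6 (kappa) and 19000000 to 19300000 of chromosome 16 (lambda), on mm10. This gave 454 of 94161 regions, of which 128 lay in the heavy window, 286 in the kappa window and 40 in the lambda window. The choice used position alone and no measured value.

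ATAC-seq uses the Tn5 transposase to insert sequencing adapters into accessible DNA, so reads gather where chromatin is open. The 4 groups were marginal zone B cells labelled knockout for LSD1 (MZB KO), marginal zone B cells labelled wild type (MZB WT), follicular B cells labelled knockout (FoB KO) and follicular B cells labelled wild type (FoB WT), with 3 libraries each. LSD1 is a histone demethylase encoded by Kdm1a. MZB were sorted as CD23-, CD21hi and CD1d+, and FoB as CD23+ and CD21int without CD1d. Cells in all groups were B220+ and lacked Thy1.1, F4/80, CD11b, CD93 and GL7, and came unstimulated from spleens of female C57BL/6J mice. Neither the labels nor the file say in which cells the gene was deleted, which Cre line was used if any, how old the mice were or whether a group's libraries came from separate animals. The p-values therefore reflect variation among libraries that may be technical.

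Every B cell assembles its antigen receptor genes by joining a V segment, a D segment (heavy chain only) and a J segment upstream of a constant gene. V segments keep their own promoters, which carry an octamer motif read by Oct proteins, and enhancers near the constant genes drive the joined gene. Joining deletes or inverts the DNA between the segments used, and different B cells keep different V segments. Accessibility summed over a population here therefore cannot tell fewer cells with an open region, fewer DNA copies of it, and less opening per cell apart. No copy number was measured.

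RefSeq promoters (GRCm38.p6, the assembly that mm10 denotes) were used to look at sequence. The promoter table held 16 entries inside the windows, none of them a V segment, and 7 of these overlapped an accessible region. The octamer ATGCAAAT or its reverse complement ATTTGCAT was found in 2 of the 16, against 570 of 32851 promoters (1.74%) in the whole table, each promoter being 300 bases long and both strands searched. The promoter of the long noncoding RNA gene Gm30948 is shown because its region was among the most strongly changed of the heavy locus. It lies at chr12:115262401-115262700 on the plus strand and holds no octamer. The promoter of the noncoding RNA gene Gm35545 in the lambda locus, at chr16:19218252-19218551 on the plus strand, is shown because it holds the reverse-complement octamer, written in capitals.
Gm30948: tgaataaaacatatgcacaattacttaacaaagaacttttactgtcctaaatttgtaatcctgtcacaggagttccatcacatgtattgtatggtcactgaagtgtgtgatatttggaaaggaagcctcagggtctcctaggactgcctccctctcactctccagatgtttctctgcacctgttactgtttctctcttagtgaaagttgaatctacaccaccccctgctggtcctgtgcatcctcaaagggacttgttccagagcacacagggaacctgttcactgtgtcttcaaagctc
Gm35545: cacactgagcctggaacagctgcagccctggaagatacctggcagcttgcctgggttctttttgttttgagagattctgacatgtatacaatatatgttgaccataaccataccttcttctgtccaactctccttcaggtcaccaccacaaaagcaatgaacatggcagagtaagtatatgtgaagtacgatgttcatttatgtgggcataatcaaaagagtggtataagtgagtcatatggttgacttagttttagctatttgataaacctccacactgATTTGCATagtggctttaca

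Levels are given in reads per peak scaled to 1000000 reads over all listed regions of a library (rppm). The libraries held 3169966 to 4287593 reads in MZB KO, 3215626 to 3761569 in MZB WT, 3934641 to 4854978 in FoB KO and 3652551 to 10375328 in FoB WT. A count of 3 reads corresponds to 0.289 to 0.946 rppm, and this floor covers counting error only. The single region at Kdm1a, on chromosome 4 from 136601890 to 136603082, had 18.9 to 29.7 rppm in MZB KO, 16.5 to 28.5 in MZB WT, 20.5 to 20.6 in FoB KO and 21.2 to 24.9 in FoB WT. Its relation to the deleted part of the gene is unknown, so it does not check the labels. Regions were assigned to marker genes and other genes outside the loci by the nearest protein-coding gene, at any distance. A region counted at a gene can therefore lie far from it. Among markers, summed levels over 84 regions at the 5 MZB genes (such as Cr2 and Cd1d1) ran from 1070 to 1142 rppm in MZB and from 799.8 to 859.9 in FoB. The 24 regions at the 3 FoB genes, among them Fcer2a, summed to 269.9 to 298.1 in MZB and 347.4 to 369.1 in FoB.

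The density and level of accessible regions differed between the loci. The windows held 44.1 regions per Mb in the heavy locus, 86.7 in kappa and 133 in lambda. The median level over all libraries was 1.95 rppm for heavy, 3.75 for kappa and 8.66 for lambda regions, against 3.87 rppm over all 94161 regions. Levels under 5 rppm were found for 97 of 128 heavy (75.8%), 183 of 286 kappa (64.0%) and 16 of 40 lambda regions (65.2% of the 454), against 56.9% of all 94161 regions. A region was tested when it had at least 1 rppm in at least 3 libraries, which kept 441 of the 454 (121 heavy, 280 kappa, 40 lambda), and the 13 others were too weak. The windows also hold flanking genes such as Zfp386 and Rpia. Between the outermost annotated segments lay 112 heavy, 265 kappa and 33 lambda regions. At the window edges, the last region inside and the first outside averaged 8.15 and 5.68 rppm (heavy, low end), 1.34 and 6.26 (heavy, high end), 1.15 and 1.12 (kappa, low end), 16.3 and 3.53 (kappa, high end), 21.9 and 1.12 (lambda, low end), and 10.5 and 0.685 (lambda, high end).

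Accessible regions sat on kappa V segments far more often than on heavy V segments. RefSeq annotates 162 kappa and 184 heavy V segments in the windows, and a region overlapped 76 (46.9%) of the kappa and 19 (10.3%) of the heavy segments. Among functional segments the counts were 66 of 102 kappa (64.7%) and 15 of 121 heavy (12.4%), and among pseudogenes 10 of 60 kappa (16.7%) and 4 of 63 heavy (6.3%). All 3 lambda V segments were covered. None of the 20 D segments, the 4 heavy J segments or the 5 kappa J segments was covered by a region, whereas 3 of 5 lambda J segments were. In kappa, the 91 regions on a V segment had a median level of 5.35 rppm and the 172 regions of the V cluster off the segments had 2.86 rppm. V segments of one family are similar in sequence, and the sources say nothing of how reads that map to several copies were treated. Values on single V segments are therefore uncertain, and levels of different segments are not compared further.

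MZB and FoB differed at many immunoglobulin regions, in both directions and in both genotypes. Among KO libraries 70 regions were called higher in MZB and 62 lower of 441 tested (limma, adjusted p below 0.05), against 23.2% called higher and 9.47% lower over all 89782 tested regions. Among WT libraries 73 were higher and 83 lower, against 24.2% and 11.4% over all tested regions. As shares of the 441, this was 15.9% higher and 14.1% lower in KO, and 16.6% higher and 18.8% lower in WT, where both directions together took 32.7% of all tested regions in KO and 35.7% in WT. At least 2-fold differences were called at 50 higher and 26 lower regions in KO (16.6% of all tested regions were called at that size) and at 52 higher and 38 lower in WT (17.7%). Fold changes here and below come from log2(rppm + 0.5), which understates the change of weak regions. The median log2 fold change of the immunoglobulin regions was -0.02 in KO and -0.04 in WT, while that of all tested regions was 0.14 in KO and 0.18 in WT. The libraries of MZB and FoB did not overlap at 174 regions in KO (39.5%, against 42.3% of all tested regions) and at 209 in WT (47.4%, against 46.7%).

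The balance of higher and lower calls depended on how libraries were scaled. Quantile normalisation gave 43 higher and 103 lower in KO, and 36 higher and 140 lower in WT. On recovered reads, edgeR with TMM gave 61 higher and 93 lower in KO and 62 higher and 116 lower in WT, and DESeq2 gave 44 and 52 in KO and 33 and 83 in WT. The same scalings moved the median of all tested regions to -0.08, 0.00 and 0.02 in KO and to -0.09, 0.05 and 0.05 in WT. In the distal V parts described next, the median kept its sign in all the alternatives run.

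**Figure D1:**
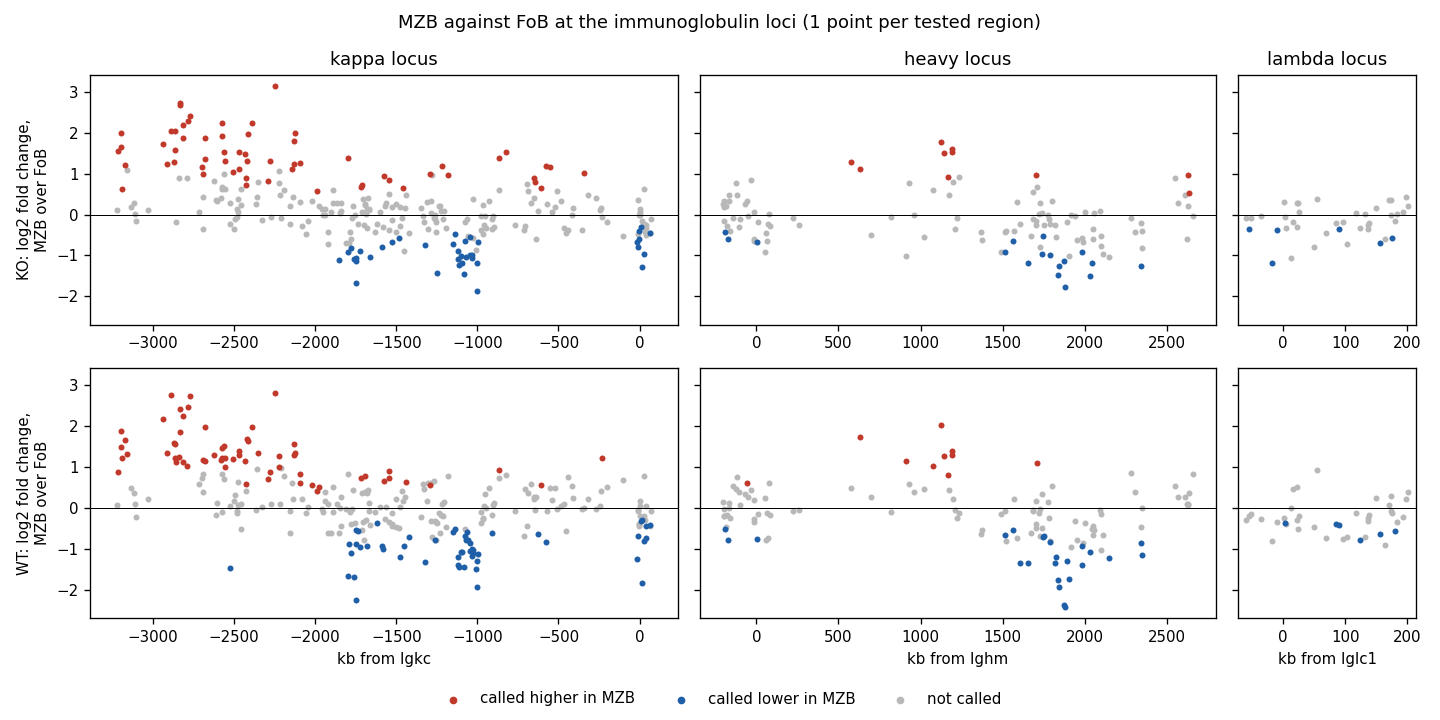
Log2 fold change of MZB over FoB (vertical axis) for each tested region against its distance in kb from Igkc, Ighm or Iglc1 (horizontal axis), with KO libraries above and WT libraries below. Red points were called higher in MZB and blue points lower (limma, adjusted p below 0.05). Red points gather at the far left end of the kappa locus, and blue points gather in stretches of the kappa V cluster nearer Igkc and of the distal heavy V cluster.

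Of the kappa V cluster, the part farthest from the constant gene had higher levels in MZB than in FoB. The V clusters were split by position into 3 parts of equal length, called distal, middle and proximal by their distance from the J segments. In the distal part of kappa, 37 of 80 tested regions were higher and 0 lower in MZB KO against FoB KO, with a median log2 fold change of 0.86. In WT 44 were higher and 1 was lower, with a median of 1.00. Higher calls took 46.2% in KO and 55.0% in WT, against 23.2% and 24.2% of all tested regions, in this part. The summed level of its 82 regions was 402.1, 404.1 and 417.9 rppm in MZB KO, 520.4, 491.8 and 479.5 in MZB WT, 200.5, 203.5 and 232.8 in FoB KO, and 282.3, 241.7 and 254.5 in FoB WT. Every MZB library lay above every FoB library, with a ratio of means of 1.92 in KO and 1.92 in WT (1.71 and 1.70 after TMM scaling). Over all the alternatives run, leave-one-out fits included, 26 to 38 of these regions were called higher in KO and 25 to 50 in WT, with no region lower in KO and at most 3 lower in WT. The flank beyond the outermost distal kappa V segment, with 5 regions, was higher in MZB as well, with 4 of 5 called in each genotype.

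Single V segments of the distal kappa part held the largest called increases. The region on Igkv15-101, a pseudogene (68481082 to 68481567 of chromosome 6), had 9.80, 9.15 and 10.1 rppm in MZB KO, 15.1, 11.2 and 12.4 in MZB WT, 1.03, 0.824 and 0.254 in FoB KO, and 0.821, 2.12 and 1.43 in FoB WT. The MZB and FoB libraries did not overlap, and MZB exceeded FoB by a log2 fold change of 3.14 ± 0.29 in KO (SE, adjusted p = 1.32e-10) and 2.82 ± 0.29 in WT (adjusted p = 1.27e-09). The region on the functional segment Igkv9-129 (67839459 to 67839941) had 9.56, 12.3 and 11.2 rppm in MZB KO, 17.8, 19.1 and 17.1 in MZB WT, 2.07, 2.27 and 2.54 in FoB KO, and 2.74, 2.12 and 1.91 in FoB WT. Its log2 fold change was 2.04 ± 0.22 in KO (adjusted p = 2.31e-09) and 2.76 ± 0.22 in WT (adjusted p = 1.71e-12).

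Further distal kappa regions were named because they held some of the largest called increases, so their likeness follows from that choice. Of the 80 tested regions of this part, 43 were not called in KO and 35 were not called in WT. Regions on Igkv9-123 and Igkv9-124 averaged 5.44 ± 1.68 and 6.50 ± 2.25 rppm in MZB KO, 10.1 ± 1.33 and 8.89 ± 1.77 in MZB WT, 0.598 ± 0.176 and 0.889 ± 0.232 in FoB KO, and 1.08 ± 0.115 and 1.20 ± 0.332 in FoB WT (SD, n = 3 each). The FoB levels lie near the level of a few reads. At Igkv9-123 the only FoB libraries to reach 1 rppm were FoB WT replicates 1 and 3, at 1.095 and 1.194. That region thus passed the filter only because of MZB libraries, and its direction was partly set in advance. Igkv14-126, which RefSeq lists as a pseudogene, carried 2 regions, and the stronger one (67896485 to 67896958) had 11.4, 13.2 and 13 rppm in MZB KO, 16.5, 12.2 and 12.1 in MZB WT, 1.86, 1.65 and 1.02 in FoB KO, and 4.11, 3.47 and 2.63 in FoB WT. Its log2 fold change was 2.72 ± 0.23 in KO (adjusted p = 1.69e-11) and 1.86 ± 0.23 in WT (adjusted p = 6.9e-08). Regions on Igkv11-125 and Igkv11-106 also rose in MZB, by 2.19 and 2.24 in KO and by 2.26 and 1.98 in WT on the log2 scale. For Igkv11-125 the FoB level rests on 5 reads over the 3 FoB KO libraries and 7 over the 3 FoB WT libraries, so the size of that fold is poorly fixed. No FoB library reached 1 rppm there, so the Igkv11-125 region passed the filter through MZB libraries alone and its direction was partly set in advance.

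**Figure D2:**
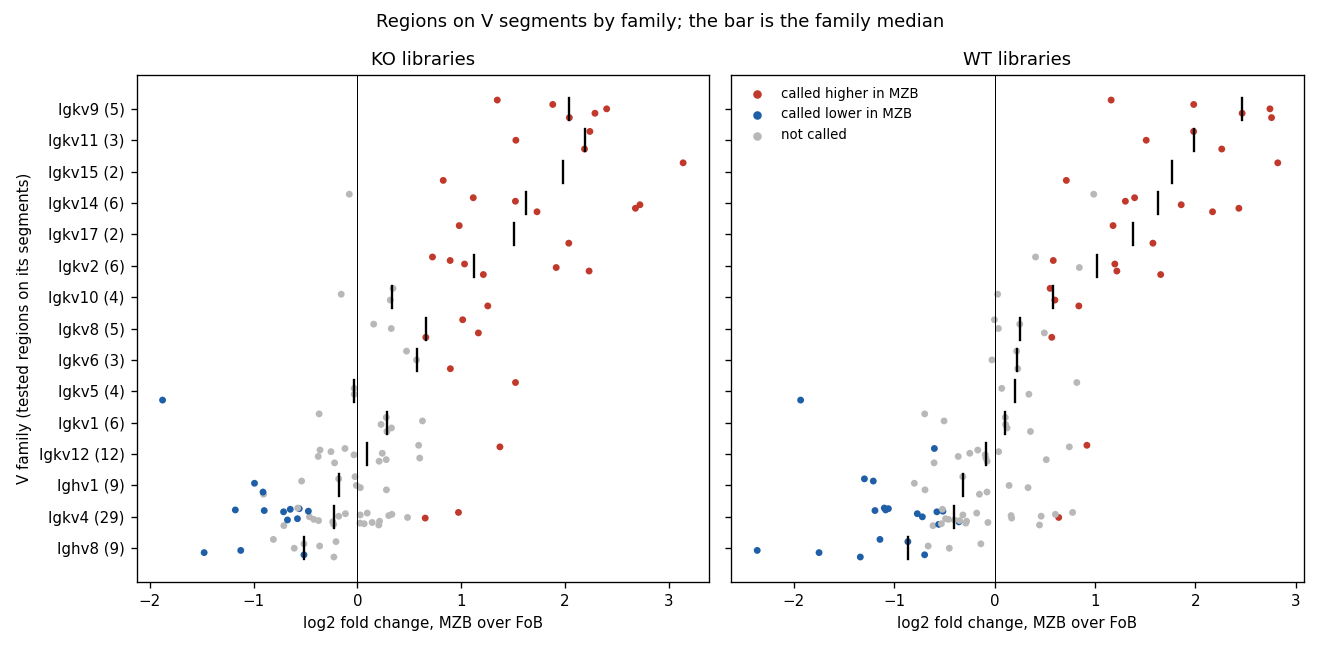
Log2 fold change of MZB over FoB (horizontal axis) for each tested region that overlaps a V segment, by V family (vertical axis, number of regions in brackets), with KO libraries left and WT libraries right. Black bars are family medians. The families Igkv9, Igkv11, Igkv14, Igkv15, Igkv17 and Igkv2 lie to the right of 0, and Igkv4 and Ighv8 lie mostly to the left.

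On V segments, regions higher in MZB were found most often in the distal kappa part, with 23 of 30 tested in KO and 21 in WT, against 4 of 35 and 5 of 35 in the middle part and 6 of 24 and 2 of 24 in the proximal part. Over all tested regions, 23.2% were higher in KO and 24.2% in WT, and 9.47% and 11.4% were lower. All 5 tested regions on Igkv9 segments were higher in MZB in KO (median log2 fold change 2.04) and in WT (2.47). The same held for the 3 regions on Igkv11 (medians 2.19 and 1.98), and for 5 of 6 on Igkv14 in each genotype (1.63 and 1.63). On Igkv2, 6 of 6 were higher in KO (1.12) and 4 of 6 in WT (1.02). Igkv15 and Igkv17 had 2 regions each, all higher in both genotypes. These 6 families have their regions in the distal part and kept medians above 0 under quantile, TMM and DESeq2 scaling. Igkv1, with 4 of its 6 regions in the distal part, had 0 called by limma in either genotype. Higher calls also came from families outside the distal part, with 1 of 4 regions on Igkv10 in KO and 3 in WT, the single Igkv19 region in both, and 3 of 5 tested regions on Igkv8 in KO and 1 in WT. With so few regions per family, these counts cannot be set apart from the shares of all tested regions. The 29 tested regions on Igkv4 segments, 27 of them in the middle part of the cluster, leaned the other way, with 8 lower and 2 higher in KO (median -0.23) and 10 lower and 1 higher in WT (-0.40). Igkv12, with 12 regions across all 3 parts, had 1 higher and 0 lower in KO and 1 of each in WT.

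A stretch that was less open in MZB lay across the border of the middle and proximal kappa parts. Of the 111 tested regions of the middle part, 11 were higher and 23 lower in KO, and 12 higher and 27 lower in WT. Lower calls took 20.7% in KO and 24.3% in WT, against 9.47% and 11.4% of all tested regions. Higher calls took 9.9% and 10.8%, against 23.2% and 24.2%. The alternatives run gave 14 to 34 lower in KO and 21 to 46 in WT. From Igkv4-57 to Igkv4-50 (69575693 to 69692859, 117.2 kb), 17 consecutive tested regions had a negative log2 fold change in both genotypes, of which 14 were called in KO (median -0.99) and 16 in WT (median -1.01). Of these, 10 lay in the middle part and 7 in the proximal part. This run was picked out after its values were seen. Close to it in the proximal part, the region on the functional segment Igkv5-48 (69726197 to 69726777) had 6.53, 3.15 and 8.28 rppm in MZB KO, 6.75, 8.51 and 4.35 in MZB WT, 30.4, 17.1 and 20.1 in FoB KO, and 24.6, 24.1 and 27.9 in FoB WT. It was lower in MZB by a log2 fold change of -1.88 ± 0.23 in KO (adjusted p = 4.9e-08) and -1.93 ± 0.23 in WT (adjusted p = 2.41e-08). A region 537 bp from the pseudogene Igkv13-82 fell by 1.66 in KO and by 2.24 in WT on the log2 scale, and one 2933 bp from Igkv4-53 fell by 1.45 and by 1.43.

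In the proximal kappa part, nearest the J segments, the counts were 8 higher and 8 lower of 61 in KO and 3 higher and 16 lower in WT. Higher calls took 13.1% in KO and 4.9% in WT, against 23.2% and 24.2% of all tested regions. Lower calls took 13.1% and 26.2%, against 9.47% and 11.4%. The summed level of this part averaged 298.8 ± 13.4 rppm in MZB KO, 277.0 ± 18.3 in MZB WT, 339.8 ± 12.3 in FoB KO and 357.1 ± 18.1 in FoB WT (SD, n = 3 each). Over the whole kappa window, the distal rise and the falls elsewhere left sums of 1699 ± 44.7 rppm in MZB KO, 1762 ± 65.2 in MZB WT, 1678 ± 63.9 in FoB KO and 1780 ± 62.5 in FoB WT, with overlapping groups and ratios of MZB to FoB of 1.01 and 0.990 (0.901 and 0.878 after TMM scaling).

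**Figure D3:**
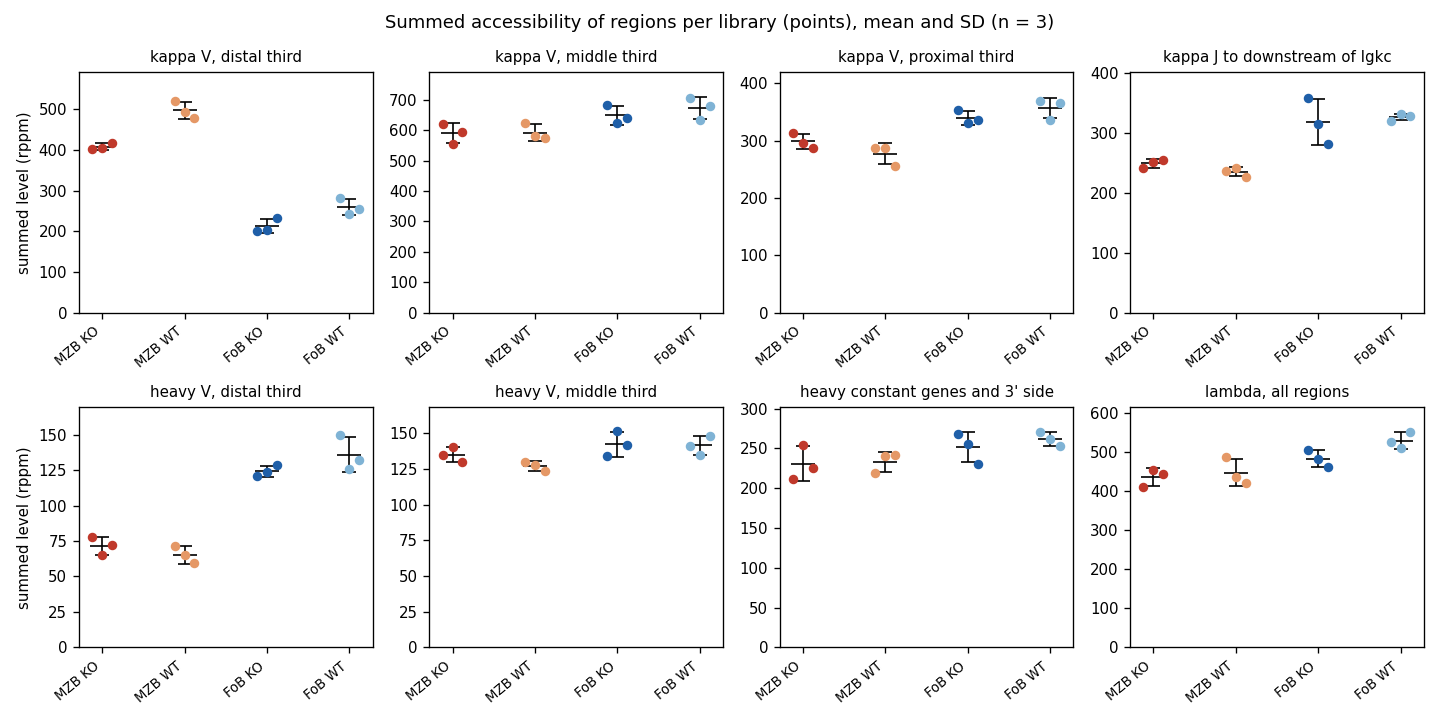
Summed level in rppm (vertical axis, from 0) of the regions in 8 parts of the loci, per library (points) with mean and SD of 3 libraries, for MZB KO, MZB WT, FoB KO and FoB WT (left to right). In the distal kappa part the MZB libraries lie at 402.1 to 520.4 and the FoB libraries at 200.5 to 282.3, and within each cell type the KO libraries lie below the WT libraries. In the distal heavy part the MZB libraries lie below the FoB libraries.

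At the heavy chain locus the distal V part went the opposite way. Of 37 tested regions, 9 were lower and 0 higher in MZB in KO, and 15 were lower and 0 higher in WT. Lower calls took 24.3% in KO and 40.5% in WT, against 9.47% and 11.4% of all tested regions. The summed level was 77.9, 65.3 and 72.1 rppm in MZB KO, 71.8, 64.9 and 59.4 in MZB WT, 120.6, 123.4 and 128.3 in FoB KO, and 149.5, 126.0 and 132.3 in FoB WT. No MZB library reached any FoB library, and the ratio of MZB to FoB was 0.578 in KO and 0.481 in WT. Over the alternatives run, 7 to 16 regions were called lower in KO and 10 to 24 in WT, and at most 1 was called higher. From Ighv1-56 to Ighv1-62-1 (115236077 to 115407848, 171.8 kb of chromosome 12), 14 consecutive tested regions were negative in both genotypes, 5 of them called in KO and 10 in WT, a run picked out after its values were seen.

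That stretch held the 2 largest called decreases of immunoglobulin regions in WT, one on Ighv8-8 itself (-1.12 in KO and -2.36 in WT) and one beside it. The region 3664 bp from the functional segment Ighv8-8 (115298026 to 115298407) had 1.4, 1.26 and 0.295 rppm in MZB KO, 0.810, 1.06 and 0.311 in MZB WT, 4.35, 4.12 and 4.32 in FoB KO, and 5.20, 6.36 and 5.97 in FoB WT. The groups did not overlap, with log2 fold changes of -1.78 ± 0.35 in KO (adjusted p = 0.000125) and -2.42 ± 0.35 in WT (adjusted p = 9.78e-07). The region on the pseudogene Ighv8-7 (115257670 to 115258436) averaged 6.16 ± 0.728 rppm in MZB KO, 5.86 ± 2.64 in MZB WT, 18 ± 0.767 in FoB KO and 19.6 ± 1.26 in FoB WT (SD, n = 3 each). The region over the printed Gm30948 promoter (115262459 to 115262906) had 4.90, 4.10 and 6.21 rppm in MZB KO, 4.05, 4.52 and 2.18 in MZB WT, 12.2, 12.2 and 13.5 in FoB KO, and 14.8, 12.4 and 16.2 in FoB WT. It was lower in MZB by -1.25 ± 0.22 in KO (adjusted p = 2.23e-05) and -1.92 ± 0.22 in WT (adjusted p = 7.96e-09) on the log2 scale. Of 9 tested regions on Ighv8 segments, 3 were lower in KO and 6 in WT and 0 were higher, where 9.47% and 11.4% of all tested regions were lower. The medians of these 9 regions, -0.52 in KO and -0.86 in WT, stayed negative under the other scalings.

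Nearer the D segments, calls in the heavy V cluster went both ways. The middle part had 6 higher (15.8%) and 5 lower (13.2%) of 38 in KO and 7 higher (18.4%) and 6 lower (15.8%) in WT, where 23.2% and 24.2% of all tested regions were higher and 9.47% and 11.4% lower in KO and WT. Its median log2 fold change was -0.13 in KO and -0.10 in WT, and the alternatives run gave 3 to 6 higher and 2 to 9 lower in KO and 2 to 7 higher and 3 to 13 lower in WT. The proximal part had 2 higher (22.2%) and 0 lower of 9 in each genotype, a share near that of all regions, with medians of -0.05 in KO and 0.40 in WT. The ratio of summed levels in the proximal part was 1.04 in KO and 1.34 in WT, and the KO ratio turned to 0.920 after TMM scaling. From Ighv10-2 to Ighv1-12 (114493631 to 114615461), 8 consecutive tested regions were positive in both genotypes, 5 called in KO and 6 in WT, a run also picked out after its values were seen. The region on Ighv11-2 (114048130 to 114048260), singled out after its values were seen because this segment is known in mice for its use with Igkv14-126 by B-1 cells that bind phosphatidylcholine, had 2.10, 0.946 and 1.18 rppm in MZB KO, 1.89, 1.06 and 2.18 in MZB WT, 0.414, 0.412 and 0.254 in FoB KO, and 0, 0.578 and 0 in FoB WT. It was higher in MZB in KO (log2 fold change 1.11 ± 0.43, adjusted p = 0.0449) and in WT (1.74 ± 0.43, adjusted p = 0.00162). Every FoB library lay under 1 rppm, so this region passed the filter through MZB libraries alone and its direction was partly set in advance. All FoB libraries except FoB WT replicate 2 lay under the level of 3 reads, and MZB KO replicate 2 lay at that level. The KO call was lost under quantile normalisation (adjusted p = 0.225), with edgeR (0.0646), with DESeq2 (0.158), with a pseudocount of 0.1 (0.112), with the compared groups alone (0.0507), with the replicate block (0.0507), and without MZB KO replicate 1 or 3 or any 1 FoB KO library (0.0664 to 0.18). The WT call held in all the alternatives run. Summed over 18 regions, the B-1 markers Spn, Cd5 and Zbtb32 had 114.7 to 128.1 rppm in MZB KO, 100.1 to 110.7 in MZB WT, 85.9 to 90.2 in FoB KO and 79.2 to 84.3 in FoB WT. Their part in the differences at V segments was not tested. The 7 regions among the D segments averaged a sum of 9.67 ± 1.11 rppm in MZB KO, 8.45 ± 0.527 in MZB WT, 13.3 ± 0.582 in FoB KO and 10.7 ± 2.36 in FoB WT (SD, n = 3 each), and limma called 0 of 6 tested between MZB and FoB in either genotype.

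Markers of other cells also moved with cell type. The 17 regions at the myeloid genes Lyz2, Csf1r and Itgam summed to 114.5 to 131.5 rppm in MZB KO, 109.8 to 122.8 in MZB WT, 58.6 to 65.1 in FoB KO and 61.1 to 65.8 in FoB WT. The 15 regions at the NK genes Ncr1 and Klrb1c summed to 300.3 to 330.5 in MZB KO, 281.7 to 290.3 in MZB WT, 355.3 to 383.2 in FoB KO and 336.0 to 373.9 in FoB WT. Of the T cell genes, Cd3e alone had regions, and its 2 regions summed to 5.60 to 11.04 rppm in MZB KO, 6.84 to 8.64 in MZB WT, 3.10 to 4.53 in FoB KO and 4.93 to 6.92 in FoB WT, so that the MZB and FoB libraries stood apart in KO and overlapped in WT. The 52 regions at 3 plasma cell genes summed to 595.8 to 643.5 in MZB and 620.9 to 691.2 in FoB, and the 11 regions at 3 general B cell genes to 183.2 to 215.1 in MZB and 209.2 to 244.5 in FoB. Their part in the differences between MZB and FoB was not tested.

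**Figure D4:**
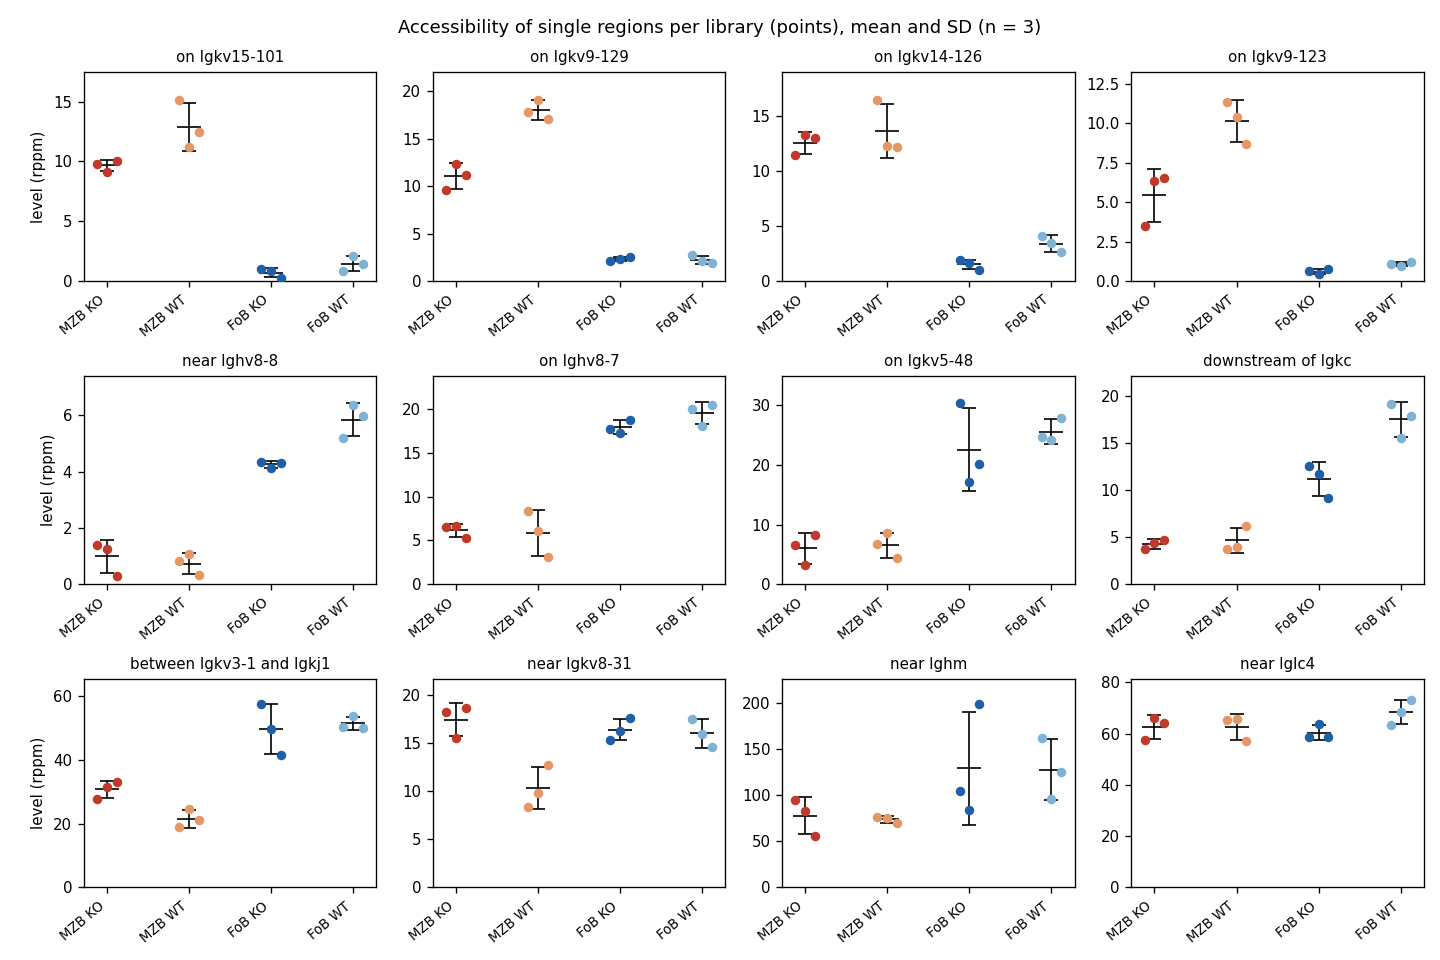
Level in rppm (vertical axis, from 0) of 12 single regions per library (points), with mean and SD of 3 libraries, for MZB KO, MZB WT, FoB KO and FoB WT (left to right). The top row holds distal kappa V segments that are higher in MZB, the middle row holds regions that are lower in MZB, and the bottom row holds the 2 regions called between KO and WT MZB, the highest region of the heavy locus and the highest region of the lambda locus.

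Around the joined kappa gene, called differences were toward FoB. Here 7 of 18 tested regions from beyond the last V segment to the downstream side of Igkc, the kappa constant gene, were lower in MZB in each genotype and 0 were higher. Lower calls thus took 38.9%, against 9.47% of all tested regions in KO and 11.4% in WT. The alternatives run gave 4 to 10 lower in KO and 5 to 11 in WT, with at most 1 higher. The summed level of the 18 regions averaged 249.1 ± 7.24 rppm in MZB KO, 235.3 ± 7.88 in MZB WT, 318.3 ± 38.1 in FoB KO and 326.4 ± 5.51 in FoB WT (SD, n = 3 each). Enhancers of the kappa gene are known to lie on this downstream side, but the annotation used here marks none, so regions are named by their distance from Igkc. The largest change was at 13805 bp (70740559 to 70740897), where levels were 3.73, 4.42 and 4.73 rppm in MZB KO, 3.78, 3.99 and 6.22 in MZB WT, 12.6, 11.7 and 9.15 in FoB KO, and 19.2, 15.5 and 17.9 in FoB WT. All MZB libraries lay below all FoB libraries, with log2 fold changes of -1.28 ± 0.20 in KO (adjusted p = 5.74e-06) and -1.83 ± 0.20 in WT (adjusted p = 5.39e-09).

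The stronger downstream regions differed little. The region 8464 bp from Igkc (70735218 to 70736054) averaged 47.2 ± 1.58 rppm in MZB KO, 43.4 ± 3.48 in MZB WT, 58.5 ± 5.55 in FoB KO and 54.6 ± 3.39 in FoB WT (SD, n = 3 each). Its log2 fold changes were -0.31 in KO (adjusted p = 0.015) and -0.33 in WT (adjusted p = 0.00797), and quantile normalisation ended both calls (adjusted p = 0.423 and 0.348). The KO call was also lost without MZB KO replicate 2 (0.0518) or FoB KO replicate 1 (0.106), and the WT call without FoB WT replicate 2 (0.0541). The region 17054 bp away was called in WT alone (-0.29 ± 0.11, adjusted p = 0.0345), a call that was lost under quantile normalisation (0.54) and without MZB WT replicate 2 or 3 or FoB WT replicate 1 or 2 (0.0686 to 0.127). Igkc itself carried a region of 9.12 ± 1.80 rppm in MZB KO, 7.78 ± 1.91 in MZB WT, 8.79 ± 2.42 in FoB KO and 8.94 ± 2.23 in FoB WT, with no call in any comparison.

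The strongest immunoglobulin region of all lay between the heavy J segments and Ighm, the mu constant gene, 1554 bp from Ighm (113424284 to 113425352). It had 94.7, 83.0 and 55.3 rppm in MZB KO, 76.4, 74.7 and 69.7 in MZB WT, 104.7, 83.2 and 198.0 in FoB KO, and 162.1, 95.9 and 124.4 in FoB WT. The WT groups did not overlap and the KO groups did, since 1 FoB KO library stood at 198.0 and another at 83.2. MZB was lower by -0.66 ± 0.18 in KO (adjusted p = 0.0038) and by -0.76 ± 0.18 in WT (adjusted p = 0.000918). The adjusted p in KO was 0.14 without FoB KO replicate 3, 0.0791 without MZB KO replicate 3, 0.101 under quantile scaling and 0.0541 with DESeq2.

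The other heavy constant genes are the targets of class switching, and few regions around them were called. Of 23 tested from Ighd to the 3′ end of the window, 2 were lower and 0 higher in MZB in KO, and 2 were lower and 1 higher in WT, with medians of 0.05 and 0.09 and as many as 7 lower in KO and 5 in WT under the alternatives. Lower calls took 8.7% in each genotype, near the 9.47% of all tested regions in KO and 11.4% in WT. By contrast, 0% were higher in KO and 4.3% in WT, against 23.2% and 24.2% of all tested regions. Regions near Ighg1 (5008 bp) and Ighg3 (1173 bp) averaged 13.9 ± 0.777 and 13.5 ± 2.02 rppm in MZB KO, 16.3 ± 2.23 and 11.4 ± 0.587 in MZB WT, 15 ± 1.29 and 10.6 ± 1.12 in FoB KO, and 15.3 ± 1.23 and 7.33 ± 1.19 in FoB WT (SD, n = 3 each). The Ighg3 region was higher in MZB in WT (log2 fold change 0.62 ± 0.18, adjusted p = 0.00518) and was not called in KO (0.32 ± 0.18, adjusted p = 0.16). The WT call was lost under quantile scaling (adjusted p = 0.0966), with edgeR and TMM (0.0659), with DESeq2 (0.169) and without FoB WT replicate 3 (0.0529). The regions nearest Ighg2b and Ighg2c averaged 0.655 to 2.10 rppm in the 4 groups, and the region 1841 bp from Ighe, at 0.53 to 0.729 rppm, was too weak to test. The region 2015 bp from Ighd, at 10.3 to 13.6 rppm, was not called. Igha alone carried a region on the gene, at 5.94 ± 1.08 rppm in MZB KO, 7.25 ± 0.896 in MZB WT, 7.91 ± 0.684 in FoB KO and 8.65 ± 0.570 in FoB WT. Beyond Igha, where the heavy 3′ regulatory elements are known to lie, the region 27304 bp away (113227909 to 113228900) fell in MZB by 0.43 in KO (adjusted p = 0.00142) and by 0.51 in WT (adjusted p = 0.000173) on the log2 scale. Quantile normalisation ended the KO call (0.0538). The region 33008 bp away, at 40.5 to 47.1 rppm in the 4 group means, was not called.

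At the lambda locus limma's calls were toward FoB. Of 40 tested, 6 were lower and 0 higher in MZB in each genotype. Of all tested regions, 9.47% were called lower and 23.2% higher in KO, and 11.4% lower and 24.2% higher in WT. The share of lower calls in lambda was thus only a little above that of all tested regions, while higher calls were absent. The alternatives run gave 2 to 11 lower and 0 to 1 higher in KO, and 3 to 19 lower and 0 to 2 higher in WT. The ratio of summed levels was 0.904 in KO and 0.846 in WT. The summed level averaged 435.6 ± 23.6 rppm in MZB KO, 446.9 ± 34.9 in MZB WT, 481.9 ± 22 in FoB KO and 528.5 ± 21.3 in FoB WT (SD, n = 3 each). The strongest lambda region, 14759 bp from the pseudogene Iglc4 (19178840 to 19180240 of chromosome 16), had 57.4, 66.2 and 64.1 rppm in MZB KO, 65.3, 65.7 and 56.9 in MZB WT, 58.8, 63.6 and 58.7 in FoB KO, and 63.5, 68.5 and 73.1 in FoB WT. These groups overlapped and it was called in no comparison. The region over the printed Gm35545 promoter (19218089 to 19218707), which holds the octamer, averaged 7.46 ± 0.582 rppm in MZB KO, 6.42 ± 1.24 in MZB WT, 12.3 ± 0.259 in FoB KO and 10.2 ± 1.98 in FoB WT, and was lower in MZB in KO (-0.69 ± 0.19, adjusted p = 0.00472) and in WT (-0.63 ± 0.19, adjusted p = 0.00884). Near Iglc3, 381 bp away, a region averaged 22.8 ± 3.85 rppm in MZB KO, 23.6 ± 5.93 in MZB WT, 23.6 ± 2 in FoB KO and 30.3 ± 1.99 in FoB WT, and its WT call (-0.38 ± 0.14, adjusted p = 0.037) was lost under quantile normalisation (0.124) and without MZB WT replicate 2 or 3 or FoB WT replicate 1 or 3 (0.0784 to 0.2). The regions on Iglc2 and beside Iglc1 averaged 3.78 to 5.95 rppm and were not called. Of the flanking genes, the promoter region of Rpia averaged 75.2 ± 4.92 rppm in MZB KO, 75.4 ± 5.56 in MZB WT, 103 ± 8.03 in FoB KO and 101 ± 1.32 in FoB WT, and was lower in MZB in both genotypes (-0.45 in KO and -0.42 in WT) except under quantile normalisation, which ended both calls (adjusted p = 0.139 and 0.156). That of Zfp386 was not called.

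Many of the cell type differences were called in both genotypes. The 2 comparisons share no library, but they share one estimate of the spread from all 12 libraries. Of the regions higher in MZB, 50 were called in both, which is 71.4% of the 70 in KO and 68.5% of the 73 in WT. Of the lower regions, 45 were called in both, which is 72.6% of the 62 in KO and 54.2% of the 83 in WT. The same shares were not counted over all tested regions, so they do not set these loci apart. Across the 441 regions the log2 fold changes in KO and WT had a Pearson correlation of 0.814 and a Spearman correlation of 0.752, against a Pearson correlation of 0.806 over all tested regions. These correlations are across regions, which are not independent, and carry no test. A single region was called in opposite directions, 2800 bp from Igkv8-28, and was singled out after its values were seen. It had 4.67, 3.15 and 4.73 rppm in MZB KO, 2.97, 1.86 and 1.87 in MZB WT, 1.45, 2.27 and 1.02 in FoB KO, and 5.48, 3.18 and 4.54 in FoB WT. The test of the difference between the genotypes gave a log2 value of 2.04 with an adjusted p of 0.254, so that difference did not pass.

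Few single immunoglobulin regions differed between KO and WT. In MZB, 2 regions were higher and 0 lower in KO than in WT of 441 tested by limma, against 0.502% called higher and 0.275% lower (0.777% together) over all tested regions. In FoB, 0 were higher and 2 lower, against 0.32% and 0.219% (0.539% together). Called changes of at least 2-fold numbered 0 in MZB (0.394% of all tested regions) and 1 in FoB (0.228%). At an unadjusted p below 0.05, limma had 55 of the 441 in MZB (12.5%, against 13.3% of all tested regions) and 39 in FoB (8.84%, against 9.05%). The KO and WT libraries did not overlap at 69 regions in MZB (15.6%, against 17.7% of all tested regions) and at 73 in FoB (16.6%, against 14.7%). The test of whether the KO effect differed between MZB and FoB called 0 of 441 regions by limma, edgeR and DESeq2, with 30 at an unadjusted p below 0.05 by limma (6.80%, against 6.22% of all tested regions), and 0.00111% of all tested regions were called.

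The 2 regions higher in MZB KO both lay in kappa. The region 2121 bp from the pseudogene Igkv8-31 (70102957 to 70103739) had 18.2, 15.5 and 18.6 rppm in MZB KO, 8.37, 9.84 and 12.8 in MZB WT, 15.3, 16.3 and 17.5 in FoB KO, and 17.5, 15.9 and 14.6 in FoB WT. All MZB KO libraries lay above all MZB WT libraries, by a log2 fold change of 0.74 ± 0.16 (adjusted p = 0.011), while the FoB groups overlapped. The region between Igkv3-1, the last V segment, and Igkj1 (70709265 to 70710039) had 27.8, 31.6 and 33.1 rppm in MZB KO, 18.9, 24.5 and 21.1 in MZB WT, 57.5, 49.9 and 41.7 in FoB KO, and 50.4, 54.0 and 50.1 in FoB WT. Its MZB groups did not overlap (log2 fold change 0.51 ± 0.12, adjusted p = 0.0256). Both lay nearer the FoB level in MZB KO than in MZB WT, and neither KO effect differed between MZB and FoB past the threshold (adjusted p = 0.694 and 0.654). The V to J interval of kappa is known to hold elements that limit the use of proximal V segments. With DESeq2 the adjusted p-values were 0.0937 for the first of these and 0.169 for the other, and the calls were also lost without MZB KO replicate 3 (0.0662 and 0.12) or MZB WT replicate 1 (0.105 and 0.155). The first was lost too without MZB WT replicate 2 (0.0514), and the other without MZB KO replicate 2 (0.101) or MZB WT replicate 3 (0.0979).

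The 2 regions lower in FoB KO were both on distal kappa V segments that RefSeq lists as pseudogenes and both were weak. The region on Igkv2-116 (68151617 to 68152009) had 0.414, 1.65 and 2.80 rppm in FoB KO and 3.83, 3.47 and 4.06 in FoB WT (log2 fold change -1.20 ± 0.30, adjusted p = 0.0465). The Igkv14-126 region already described had 1.86, 1.65 and 1.02 in FoB KO and 4.11, 3.47 and 2.63 in FoB WT (-0.96 ± 0.23, adjusted p = 0.0408). In both, no KO library reached a WT library. Neither call held with edgeR (adjusted p = 0.0934 and 0.125) or DESeq2 (0.391 and 0.505), and most fits that left out 1 library lost them, among them the fit without FoB KO replicate 1 for Igkv2-116 (0.385) and without FoB WT replicate 1 for Igkv14-126 (0.198).

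**Figure D5:**
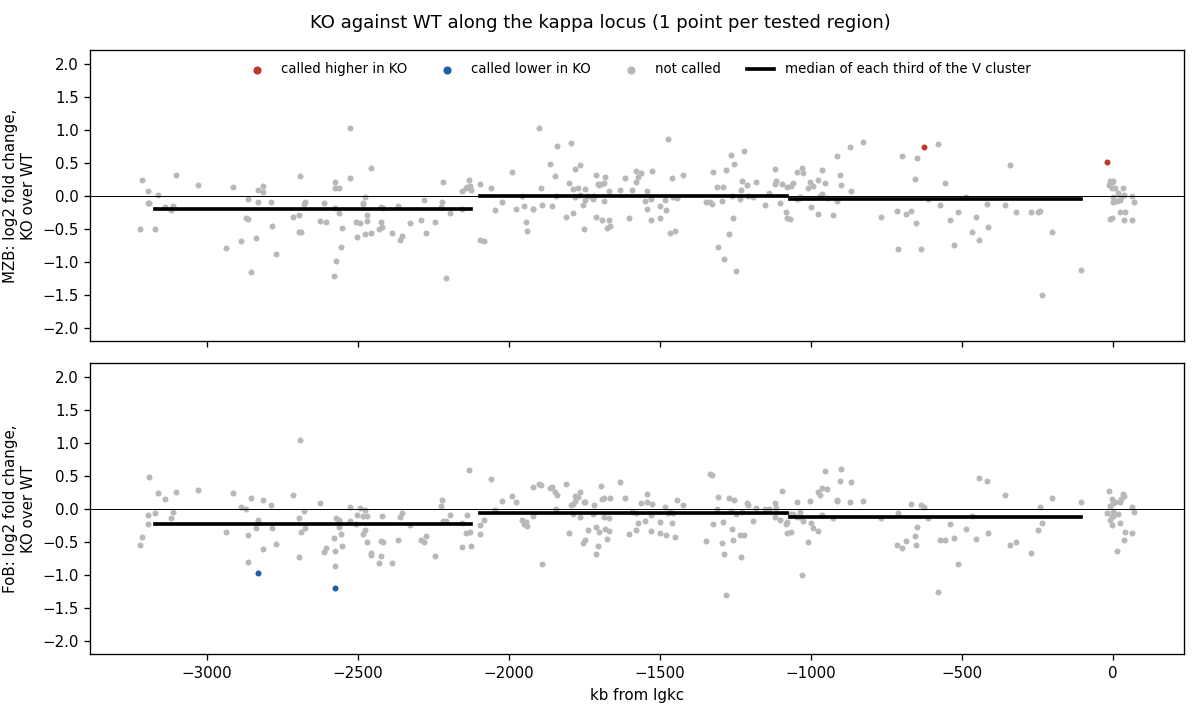
Log2 fold change of KO over WT (vertical axis) for each tested kappa region against its distance in kb from Igkc (horizontal axis), in MZB above and FoB below. Red points were called higher in KO and blue points lower, and black bars are medians of the 3 parts of the V cluster. The bars of the distal part lie at -0.20 in MZB and -0.24 in FoB.

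Across the distal kappa part, levels were lower in KO in both cell types although hardly any single region was called. The summed levels given above put every KO library under every WT library, at 402.1 to 417.9 rppm in MZB KO against 479.5 to 520.4 in MZB WT, and at 200.5 to 232.8 in FoB KO against 241.7 to 282.3 in FoB WT. The ratio of KO to WT means was 0.821 in MZB and 0.818 in FoB (0.828 and 0.822 after TMM scaling). The log2 fold change was negative at 59 of 80 tested regions in MZB (median -0.20) and at 63 of 80 in FoB (median -0.24), where the medians of all tested regions were -0.02 in each. Under the alternatives run the median stayed between -0.28 and -0.16 in MZB and between -0.32 and -0.12 in FoB. In the middle part the ratio of KO to WT was 0.997 in MZB and 0.963 in FoB, and in the proximal part 1.08 in MZB and 0.951 in FoB. These sums carry no test. Libraries did not overlap at 18 of the 80 distal regions in MZB (22.5%, against 17.7% of all tested regions) and at 17 in FoB (21.2%, against 14.7%).

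Elsewhere the sums of KO and WT mostly overlapped. The groups stood apart in the proximal heavy part in MZB (ratio of KO to WT 0.845), and in the lambda locus (0.912), the D segments (1.25) and the flank of the heavy locus (0.887) in FoB. The distal heavy part had a KO to WT ratio of 1.098 in MZB and 0.913 in FoB, and the kappa J to constant part 1.06 and 0.975. Beside these, summed levels of the immature B cell markers Cd93, Rag1 and Igll1 (16 regions, with none at Rag2) were 127.6 to 146.6 rppm in MZB KO against 98.2 to 109.5 in MZB WT, and 178.2 to 196.6 in FoB KO against 168.4 to 183.5 in FoB WT. The B-1 and NK markers given above were also higher in every MZB KO library than in any MZB WT library. In FoB, the KO libraries stood above the WT libraries in the B-1 markers and below them in Cd3e. Their part in the KO differences was not tested.

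Some genes whose products act with the immunoglobulin chains or in their joining had regions called between MZB and FoB, in both directions, and others had none. The counts per gene are small, and 32.7% of all tested regions were called in KO and 35.7% in WT. Single regions given for these genes and for the factors below are those with the lowest adjusted p of their gene within a genotype, and were not fixed by the rule for named regions. At Cd79b, a signalling partner of the receptor, 2 of 4 tested regions were lower in MZB in KO and 3 in WT, and 0 were higher. The one 827 bp from the gene (106310028 to 106310514 of chromosome 11) averaged 25.8 ± 4.66 rppm in MZB KO, 24.8 ± 4.82 in MZB WT, 37.5 ± 1.02 in FoB KO and 36.9 ± 5.02 in FoB WT (SD, n = 3 each), with log2 fold changes of -0.55 ± 0.14 in KO (adjusted p = 0.00169) and -0.58 ± 0.14 in WT (adjusted p = 0.000886). At Cd79a, the other signalling partner, 1 of 3 regions was lower and 0 higher in KO, and 2 were lower and 1 higher in WT. At Vpreb3, which is related to the surrogate light chain, 1 of 5 regions was lower in each genotype, but not the same region. Jchain, which encodes the chain that joins IgM and IgA into polymers, had 1 of 2 regions higher in MZB in each genotype. That region, 6931 bp from the gene (88534828 to 88535238 of chromosome 5), averaged 5.96 ± 1.24 rppm in MZB KO, 4.96 ± 0.439 in MZB WT, 2.50 ± 0.204 in FoB KO and 2.58 ± 0.249 in FoB WT, with log2 fold changes of 1.09 ± 0.26 in KO (adjusted p = 0.00118) and 0.83 ± 0.26 in WT (adjusted p = 0.0118). At Dntt, which encodes the polymerase that adds bases at the joins, 1 of 9 regions was higher in MZB in each genotype, a different one in KO and in WT. Rag1 had 1 of 2 regions lower in MZB in KO and 0 called in WT, and the 1 region of Igll1 was called in neither. The remaining genes of this list are not given here.

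At the genes of factors known to act through immunoglobulin promoters and enhancers, a smaller share of regions was called between cell types than over all regions. The 395 tested regions had 1 of 16 such genes as their nearest protein-coding gene, at any distance. Of these, 41 were higher and 54 lower in MZB in KO, and 42 higher and 76 lower in WT, with median log2 fold changes of 0.01 in KO and -0.04 in WT. This was 24.1% called in KO and 29.9% in WT, against 32.7% and 35.7% of all tested regions. Lower calls made up 13.7% in KO and 19.2% in WT, against 9.47% and 11.4%. Ebf1, an early B lineage factor, took 83 of the 395 regions. It held 29 of the 54 lower and 5 of the 41 higher regions in KO, and 34 of the 76 lower and 1 of the 42 higher in WT. The share of lower calls therefore rests in large part on this gene. Among its lower regions in WT was one 108504 bp from the gene (45116600 to 45117294 of chromosome 11), at 11.9 ± 1.02 rppm in MZB WT and 49.8 ± 0.479 in FoB WT (-2.03 ± 0.12, adjusted p = 1.65e-15). Pax5, another factor of B cell identity, had 4 higher and 2 lower of 32 regions in KO and 5 higher and 4 lower in WT. In KO one of its higher regions (44624799 to 44625180 of chromosome 4) had 5.74 ± 1.87 rppm in MZB KO and 1.66 ± 0.538 in FoB KO (1.52 ± 0.30, adjusted p = 0.000129). The means went the same way in WT, at 6.27 ± 1.73 rppm in MZB WT and 1.635 ± 0.199 in FoB WT. In WT a lower Pax5 region (44704409 to 44704825) had 27.0 ± 3.15 rppm in MZB WT and 45.9 ± 2.18 in FoB WT (-0.76 ± 0.11, adjusted p = 7.22e-07). Its means also went the same way in KO, at 31.2 ± 1.18 rppm in MZB KO and 42.9 ± 2.25 in FoB KO. Pou2f2, which encodes the octamer-binding protein Oct-2, had 2 higher and 2 lower of 14 regions in KO and 2 higher and 4 lower in WT. In KO one of the higher (25112360 to 25113282 of chromosome 7) had 25.5 ± 5 rppm in MZB KO and 13.6 ± 1.90 in FoB KO (0.88 ± 0.15, adjusted p = 2.18e-05). It averaged 24.6 ± 3.33 rppm in MZB WT and 15.5 ± 2.14 in FoB WT, the same direction. In WT one of the lower Pou2f2 regions (25129461 to 25130153) had 28.2 ± 3.88 rppm in MZB WT and 43.4 ± 5.39 in FoB WT (-0.61 ± 0.11, adjusted p = 5.51e-05). It averaged 32.3 ± 2.38 rppm in MZB KO and 43.6 ± 1.51 in FoB KO, again the same direction. Irf4 had 2 higher and 1 lower of 15 regions in WT. One of the higher, 18672 bp from the gene (30730192 to 30730561 of chromosome 13), lay at 16.1 ± 1.73 rppm in MZB WT and 6.60 ± 0.0713 in FoB WT (1.22 ± 0.18, adjusted p = 9.1e-07). Between KO and WT, 1 region 7786 bp from Irf8 was higher in MZB KO (12.8 ± 2.99 rppm, against 7.39 ± 2.22 in MZB WT, adjusted p = 0.0428), which is 0.253% of the 395 against 0.777% of all tested regions, and 0 of the 395 were called in FoB by limma, against 0.539%.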

How the data were processed

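The authors deposited values in RPM, scaled so that the 94161 listed regions of each of the 12 libraries share 1000000 reads (rppm). Alignment with Bowtie 1.1.1 to mm10 and peak calling with MACS2 are per the submitters' processing notes. Read filters, the treatment of reads with several map positions, any Tn5 offset and the merging of peaks are unknown here. Coordinates are printed as deposited. Values were whole multiples of 1 read within a tolerance of 0.01 (100% of values), so reads were also recovered.

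A region entered the tests when 3 or more libraries reached 1 rppm (89782, leaving out 4379). The model was limma 3.58.1 (R 4.3.3, trend option) of log2(rppm + 0.5). The fit had 1 coefficient per group over 12 libraries. Two-sided p-values were adjusted by Benjamini-Hochberg across all tested regions, and 0.05 was the threshold. Adjusted p-values are limma's except where edgeR or DESeq2 is written beside them. Alternatives were pseudocounts of 0.1 and 2, no filter, quantile normalisation, the compared groups alone, a replicate block, edgeR 4.0.16 with TMM and DESeq2 1.42.0 on recovered reads, and leaving out each library. The fit was tested on simulated data.

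Named regions were the 6 called with the largest change in each direction per comparison, the 8 with the highest mean, and the region at or nearest each constant gene. Other single regions and runs of neighbours were singled out after their values were seen, among them the regions given for genes outside the loci (the lowest adjusted p of each gene). Members, parts of the loci and gene lists were chosen with earlier results of these data known. Segments, genes and promoters are from RefSeq (GRCm38.p6). For marker genes and gene lists, each region was assigned to its nearest protein-coding gene, with no limit of distance. V segment sequences were not used here. Results that rest on some items are not reported here, so the list of genes that act with immunoglobulin is given gene by gene.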

Additional observations from a re-analysis of the deposited data

How the results depend on the processing

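Of 54 calls of named regions, 1010 of 1080 values under the alternatives kept the direction and the call, 70 lost the call (45 of them among 648 fits without 1 library, 11 under quantile normalisation) and 0 reversed. Many of these values could not reverse. Leaving out a library outside the comparison, no filter, the compared groups alone and the replicate block leave the fold change as it was. Many named regions were also taken for their large changes, so the tally overstates how firm the calls are. For KO against WT in MZB, where 2 regions were higher and 0 lower, DESeq2 called 0 higher, and lower calls numbered 1 with a pseudocount of 2, 1 under quantile normalisation, 3 with the compared groups alone and 2 with edgeR. For KO against WT in FoB (0 higher, 2 lower), edgeR called 1 higher, and lower calls numbered 1 with a pseudocount of 0.1, 1 with edgeR, and 0 with a pseudocount of 2, quantile normalisation, the compared groups alone or DESeq2. DESeq2 gave no adjusted p for 178 regions in MZB and 157 in FoB. For MZB against FoB, higher calls in KO numbered 43 under quantile normalisation and 44 with DESeq2, with 103 lower under quantile normalisation; in WT they numbered 36 and 33, with 140 lower. Leaving out 1 library gave, in KO against WT, 0 to 2 higher and 0 to 3 lower in MZB and 0 to 1 higher and 0 to 1 lower in FoB; in MZB against FoB, 58 to 71 higher and 46 to 62 lower in KO and 54 to 81 higher and 62 to 86 lower in WT. The cause of these shifts was not tested. With the replicate block, MZB against FoB gave 66 higher and 61 lower in KO and 76 higher and 80 lower in WT, and KO against WT gave 2 higher and 0 lower in MZB and 0 higher and 2 lower in FoB. No pairing of samples by number was seen. Same-numbered libraries had correlations of -0.09 to 0.13 in their deviations and other pairs -0.21 to 0.20, and 5 of 12 libraries correlated best with their own number. With 3 libraries per group this cannot exclude a pairing, and the labels state none. Depth limits regions near 1 rppm, where 3 reads are 0.289 to 0.946 rppm.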
